A study of Mus musculus with 12 samples.

Results

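The Arp2/3 complex and its activators were followed here as 10 genes named in a list. They comprise the complex subunits Arpc1b, Arpc2, Arpc3, Arpc4, Arpc5, Actr2 and Actr3, the nucleation promoting factors Was and Wasf2, and the coronin Coro1a. The genes were chosen by name, with earlier results of these data known, and no cut-off on a measured value set who belongs. Of the 10 genes, 7 had at least 1 probe set annotated to their symbol alone, which gave 14 probe sets among the 28898 of this kind on the array (17097 genes). Arpc1b, Arpc3 and Actr2 had none in the annotation used and were not analysed here. RNA of dendritic cells (DCs) enriched from the spleens of male C57BL/6 mice aged 10 weeks was hybridised to 12 Affymetrix arrays, with 3 arrays in each of 4 groups. The groups were miR-142 knockout (KO) DCs with lipopolysaccharide (LPS), unstimulated KO DCs, DCs of wild-type (WT) littermates with LPS, and unstimulated WT DCs. The sources used here do not state the dose, duration and route of LPS, the design of the knockout allele or the cells in which it acts. Each array held the DCs of 1 spleen, obtained by positive selection, so cells other than DCs can contribute RNA.

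Cells build branched actin networks when the Arp2/3 complex binds the side of an existing filament and starts a daughter filament from it. The complex is almost inactive alone and is switched on by nucleation promoting factors, of which WASP (encoded by Was) acts under Cdc42 and WAVE2 (Wasf2) acts under Rac within a larger regulatory complex. In DCs such networks drive the leading edge, podosomes, uptake of particles and the contact with T cells. miR-142 is a microRNA made almost only in blood-forming lineages. Its 3p arm has been reported to act on Wasl, the gene of the widely expressed relative of WASP, in human breast cancer cells, and actin regulators including Wasl were reported as its targets in mouse megakaryocytes.

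The microRNA removed in the KO mice is shown here because every genotype comparison turns on it. RefSeq (GRCm38.p6) places its 64-base hairpin on the plus strand of chromosome 11 at chr11:87756864-87756927. The 2 mature arms are printed 5′ to 3′ with the seed, bases 2 to 8, in capitals, and in the hairpin the capitals mark both arms.
mmu-miR-142a-5p: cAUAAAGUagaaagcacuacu
mmu-miR-142a-3p: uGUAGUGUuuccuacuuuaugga
Mir142 hairpin: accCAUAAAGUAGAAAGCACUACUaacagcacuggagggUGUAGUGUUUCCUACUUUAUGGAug
The 2 seeds differ, so a transcript that pairs with one need not pair with the other. The target sites of the listed genes were not analysed here. Mir142 had no probe set annotated to it alone, so the genotype labels could not be checked against its level.

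The deposited values are log2 signals, and the median probe set averaged 2.87 over the 12 arrays. KO LPS array 2 stood apart. Its highest correlation with any other array was 0.958, where every other array had a partner at 0.987 or above, and its signal at the 3′ probe set of Gapdh exceeded the middle one by 3.04 log2 units, against 1.53 to 1.86 on the other 11 arrays. The corresponding difference for Actb was 0.94, against 0.02 to 0.16. Member results and calls that rest on this array are therefore also given without it. Labels disagree about the cells, since the sample descriptions speak of T cells while titles, sources and the cell type field name DCs. The DC genes Itgax (6.69 to 7.59 over the arrays) and Cd74 (8.62 to 10.16) lay far above the median probe set, and the T cell gene Cd3e lay at 3.20 to 4.50. The levels of other listed genes did not separate the 2 lists in this way. The DC genes Esam and Xcr1 lay at 2.60 to 3.35 and 3.20 to 4.19. Cd8a and Cd4 of the T cell list lay at 4.93 to 6.16 and 4.31 to 5.65. Of 11 measured DC markers none lay under the median probe set in all groups, and the same held for the 9 measured T cell markers, so this count does not set the cells apart. Of the DC markers 1 was lower in KO averaged over stimulations. Of the brightest probe sets of all 17097 genes, 1.54% were called higher and 0.819% lower in that comparison. The counts of higher and lower markers below are from it too. The summed linear signal of the DC markers was 1360 to 2470 in KO LPS and 2270 to 2440 in KO unstimulated arrays. In WT LPS arrays it was 2340 to 2610 and in WT unstimulated arrays 2320 to 2510. Sums of several marker lists of other cells differed between genotypes. The sum of 9 T cell markers was 132 to 179 in KO LPS and 158 to 170 in KO unstimulated arrays. In WT LPS arrays it was 177 to 223 and in WT unstimulated arrays 189 to 226, with 1 of 9 lower in KO. Genes of this list differed in direction. In KO LPS and KO unstimulated, against WT LPS and WT unstimulated, Cd4 averaged 4.70 and 4.89 against 5.36 and 5.50. In the same order Cd8a averaged 5.32 and 5.38 against 5.98 and 5.77, and Cd3d 3.92 and 4.11 against 4.19 and 4.46. Cd3e (3.97 and 3.90 against 3.89 and 3.73) and Cd3g (3.11 and 3.10 against 3.00 and 3.00) were not lower in KO. The sum of 10 neutrophil markers was 2180 to 6220 in KO LPS and 2300 to 7240 in KO unstimulated arrays, against 193 to 882 in WT LPS and 208 to 968 in WT unstimulated arrays, and 8 of the 10 were higher in KO in the comparison averaged over stimulations. The sum of 7 NK cell markers was 649 to 854 in KO LPS and 681 to 846 in KO unstimulated arrays. In WT LPS arrays it was 88.8 to 191 and in WT unstimulated arrays 75.4 to 182. Of the 7 markers 6 were higher in KO, among them Ncr1, which lay under the median probe set in all groups. Prf1 was not called higher, averaging 4.05 in KO LPS and 4.35 in KO unstimulated, against 4.47 in WT LPS and 4.32 in WT unstimulated. Among 6 measured B and plasma cell markers 1 rose and 1 fell, and their sum was 205 to 435 in KO against 416 to 603 in WT arrays. These genes also differed in direction. In KO LPS and KO unstimulated, against WT LPS and WT unstimulated, Jchain averaged 4.79 and 3.77 against 7.84 and 7.80. In the same order Ms4a1 averaged 6.90 and 6.63 against 5.93 and 5.86, and Cd79a 6.08 and 6.92 against 6.55 and 6.58. No platelet, erythroid or macrophage and monocyte marker was called between genotypes. Platelet sums were 112 to 595 in KO LPS and 131 to 422 in KO unstimulated arrays, against 55.1 to 105 and 46.6 to 95.8 in WT LPS and WT unstimulated arrays. In the same order erythroid sums were 1200 to 1530 and 1080 to 1960, against 401 to 1430 and 413 to 1410. Macrophage and monocyte sums were 580 to 750 and 629 to 796, against 572 to 971 and 543 to 1020. Neutrophils, NK cells and platelets also express Arp2/3 genes, and the part of these cells in any genotype difference below was not tested. In such bulk samples fewer cells of a type and less RNA per cell cannot be told apart.

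The leading probe sets of the measured subunits lay well above the median probe set, and no subunit passed the test in any comparison. Arpc2, which with Arpc4 forms the backbone that holds the complex on the mother filament, had log2 signals of 8.62, 8.06 and 8.55 in KO LPS, 8.79, 8.74 and 8.51 in KO unstimulated, 8.67, 8.71 and 8.65 in WT LPS and 8.77, 8.66 and 8.65 in WT unstimulated arrays. All KO LPS arrays lay below the WT LPS arrays, array 2 by far the most, while the unstimulated genotypes overlapped. KO was -0.27 ± 0.14 (SE) log2 units from WT after LPS (limma adjusted p = 0.423), and -0.09 ± 0.11 without KO LPS array 2 (adjusted p = 0.878). In unstimulated cells the difference was -0.01 ± 0.14, with a 95% interval of -0.32 to 0.29.

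Arpc4 was measured by a pair of probe sets that ran together. The brighter one, 1423589_PM_at, read 6.37, 5.19 and 6.34 in KO LPS, 6.59, 6.77 and 6.29 in KO unstimulated, 6.45, 6.55 and 6.48 in WT LPS and 6.47, 6.50 and 6.37 in WT unstimulated arrays. The other, 1423588_PM_at, read 6.22, 4.76 and 6.18 in KO LPS, 6.43, 6.60 and 6.33 in KO unstimulated, 6.23, 6.35 and 6.43 in WT LPS and 6.24, 6.35 and 6.38 in WT unstimulated arrays. On both, KO LPS array 2 was the lowest array by more than a log2 unit and the other KO LPS arrays lay just under the WT LPS arrays. The KO minus WT differences after LPS were -0.53 ± 0.25 (adjusted p = 0.374) and -0.62 ± 0.29 (adjusted p = 0.366), and both became -0.14 without KO LPS array 2 (adjusted p = 0.833 for 1423589_PM_at and 0.784 for 1423588_PM_at). The SD of the 3 KO LPS arrays was 0.67 and 0.83 on these probe sets, against 0.05 and 0.10 in WT LPS.

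Arpc5 encodes the small subunit at the edge of the complex, which links it to Arp2, and its probe sets differed. The bright probe set, 1448129_PM_at, read 7.39, 7.12 and 7.07 in KO LPS, 7.36, 7.29 and 7.14 in KO unstimulated, 7.22, 7.28 and 7.18 in WT LPS and 7.33, 7.30 and 7.21 in WT unstimulated arrays, so every pair of groups overlapped. Its KO minus WT difference was -0.03 ± 0.11 after LPS (95% interval -0.27 to 0.20) and -0.02 ± 0.11 in unstimulated cells (-0.26 to 0.21), the narrowest intervals among the leading probe sets of the subunits. Without KO LPS array 2 the difference after LPS was 0 ± 0.12 (-0.26 to 0.27). The dim probe set, 1444568_PM_at, read 2.96, 2.21 and 2.82 in KO LPS, 2.99, 2.91 and 2.94 in KO unstimulated, 3.36, 3.18 and 3.36 in WT LPS and 3.11, 3.01 and 3.09 in WT unstimulated arrays. Here all KO arrays lay below the WT arrays of the same stimulation. The difference was -0.64 ± 0.16 after LPS (adjusted p = 0.123) and -0.38 ± 0.11 averaged over both stimulations (adjusted p = 0.109), the lowest adjusted p of any member in these comparisons. With KO LPS array 2 removed the values were -0.42 ± 0.11 (adjusted p = 0.149) and -0.27 ± 0.07 (adjusted p = 0.0627). Among the alternatives run, the averaged Arpc5 difference was called only when KO LPS array 1 was removed (-0.46, adjusted p = 0.0471) and when array number was a block and KO LPS array 2 was removed (-0.29, adjusted p = 0.0336). Its signal lay close to that of the median probe set, and the bright probe set of the same gene showed no such gap.

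Actr3 encodes Arp3, one of the actin-related proteins that seed the daughter filament, and its 3 probe sets went in opposite directions. The brightest, 1452051_PM_at, read 8.39, 7.93 and 8.27 in KO LPS, 8.47, 8.50 and 8.13 in KO unstimulated, 8.44, 8.59 and 8.41 in WT LPS and 8.52, 8.59 and 8.20 in WT unstimulated arrays. KO minus WT after LPS was -0.28 ± 0.15 on it (adjusted p = 0.429), and -0.15 ± 0.15 without KO LPS array 2 (adjusted p = 0.838). The second, 1426392_PM_a_at, read 8.09, 8.78 and 7.97 in KO LPS, 8.07, 8.19 and 7.72 in KO unstimulated, 7.94, 7.97 and 7.95 in WT LPS and 7.82, 7.82 and 7.70 in WT unstimulated arrays. The last, 1434968_PM_a_at, read 8.04, 8.56 and 7.81 in KO LPS, 7.91, 7.99 and 7.68 in KO unstimulated, 7.80, 7.83 and 7.78 in WT LPS and 7.65, 7.57 and 7.63 in WT unstimulated arrays. On these probe sets KO LPS array 2 was the highest of the 12 arrays, where it was the lowest on 1452051_PM_at. Averaged over stimulations, KO minus WT was 0.27 ± 0.13 for 1426392_PM_a_at (adjusted p = 0.335) and 0.29 ± 0.11 for 1434968_PM_a_at (adjusted p = 0.23), and -0.18 ± 0.11 for 1452051_PM_at (adjusted p = 0.451). With that array removed they were 0.15 ± 0.09, 0.18 ± 0.08 and -0.11 ± 0.10 (adjusted p = 0.477, 0.281 and 0.659 in that order). A direction for Actr3 as a gene cannot be read from probe sets that disagree.

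**Figure D1:**
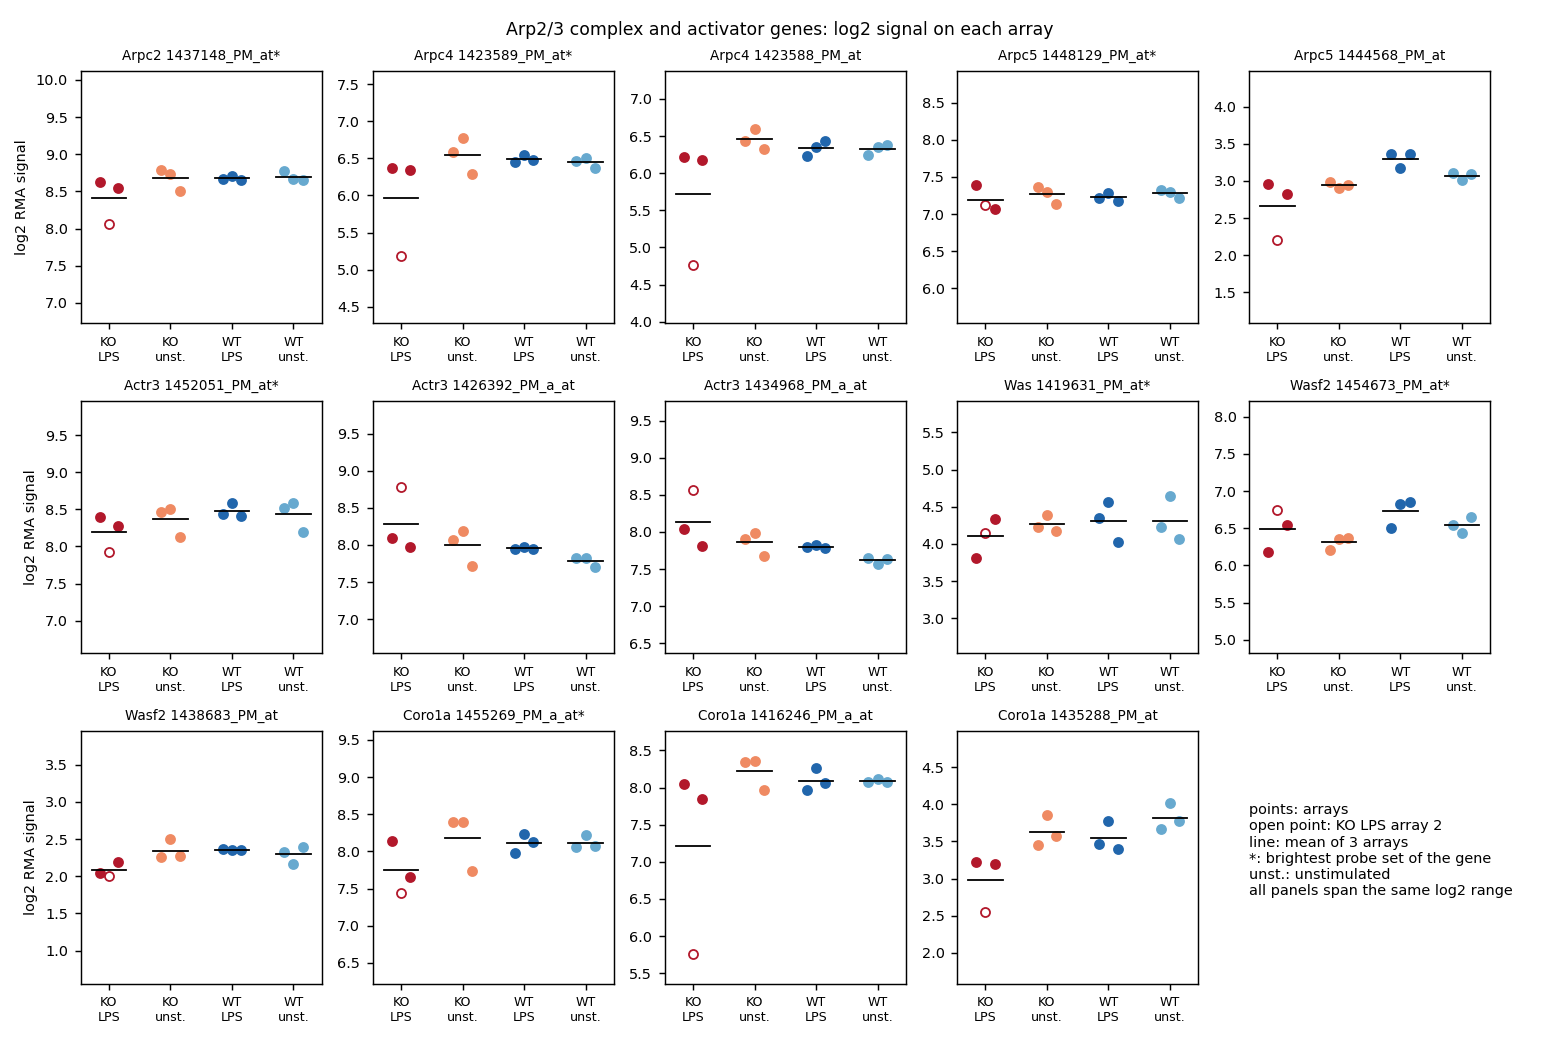
Log2 RMA signal (y axis) of the 14 probe sets of Arpc2, Arpc4, Arpc5, Actr3, Was, Wasf2 and Coro1a on each array, by group (x axis: KO LPS, KO unstimulated, WT LPS, WT unstimulated; unst., unstimulated). Points are arrays, lines are means of 3 arrays, and the open point is KO LPS array 2, which lies below the other 11 arrays in 9 panels and above them in 2.

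The activators showed small differences too. Was, the haematopoietic WASP gene, read 3.81, 4.15 and 4.34 in KO LPS, 4.23, 4.39 and 4.18 in KO unstimulated, 4.35, 4.56 and 4.03 in WT LPS and 4.23, 4.64 and 4.07 in WT unstimulated arrays. Every pair of groups overlapped, and the KO minus WT difference was -0.21 ± 0.18 after LPS (95% interval -0.61 to 0.18) and -0.05 ± 0.18 in unstimulated cells (-0.44 to 0.35). KO LPS array 2 lay inside the range of the other arrays for this gene, and leaving it out gave -0.24 ± 0.20 after LPS (-0.68 to 0.20).

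Wasf2, the WAVE2 gene, read 6.18, 6.75 and 6.54 in KO LPS, 6.21, 6.35 and 6.37 in KO unstimulated, 6.50, 6.83 and 6.85 in WT LPS and 6.55, 6.44 and 6.65 in WT unstimulated arrays on its bright probe set, 1454673_PM_at. All unstimulated KO arrays lay below all unstimulated WT arrays, while the LPS arrays overlapped. The KO minus WT difference was -0.23 ± 0.15 in unstimulated cells (adjusted p = 0.742) and -0.24 ± 0.15 after LPS (adjusted p = 0.497). Here KO LPS array 2 was the highest of its group. Without it the difference after LPS was -0.37 ± 0.14 (adjusted p = 0.417), and the averaged difference was -0.30 ± 0.10 (adjusted p = 0.12), against -0.23 ± 0.10 with all arrays (adjusted p = 0.293). The dim probe set, 1438683_PM_at, ran from 2.01 to 2.50 over the 12 arrays, with group means of 2.08 in KO LPS, 2.34 in KO unstimulated, 2.36 in WT LPS and 2.29 in WT unstimulated cells. It lay under the median probe set, and its difference after LPS was -0.28 ± 0.11 (adjusted p = 0.281), and -0.24 ± 0.12 with KO LPS array 2 left out (adjusted p = 0.554).

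Coro1a encodes coronin 1A, a leukocyte protein that binds actin filaments and the Arp2/3 complex and is mostly described as restraining the complex rather than activating it. Its brightest probe set, 1455269_PM_a_at, read 8.14, 7.44 and 7.65 in KO LPS, 8.40, 8.40 and 7.73 in KO unstimulated, 7.98, 8.24 and 8.13 in WT LPS and 8.06, 8.22 and 8.07 in WT unstimulated arrays. The second, 1416246_PM_a_at, read 8.05, 5.76 and 7.84 in KO LPS, 8.34, 8.36 and 7.97 in KO unstimulated, 7.96, 8.26 and 8.06 in WT LPS and 8.07, 8.12 and 8.08 in WT unstimulated arrays. Genotypes overlapped on both probe sets under either stimulation, and the array at 5.76 is KO LPS array 2. After LPS the KO minus WT difference was -0.37 ± 0.20 (adjusted p = 0.426) on 1455269_PM_a_at and -0.88 ± 0.43 (adjusted p = 0.394) on 1416246_PM_a_at. Without that array they were -0.22 ± 0.20 and -0.15 ± 0.14 (adjusted p = 0.812 and 0.83). The dim probe set, 1435288_PM_at, read 3.22, 2.55 and 3.19 in KO LPS, 3.45, 3.85 and 3.57 in KO unstimulated, 3.46, 3.78 and 3.40 in WT LPS and 3.66, 4.02 and 3.78 in WT unstimulated arrays. The KO LPS arrays were the lowest of all on it, with a difference from WT LPS of -0.56 ± 0.19 (adjusted p = 0.225), and -0.34 ± 0.16 without KO LPS array 2 (adjusted p = 0.508).

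Taking the members as a list, no Arp2/3 probe set was called between genotypes. In unstimulated cells 0 of 14 passed an adjusted p of 0.05, where 0.163% of all probe sets did, and 0 of 14 reached an unadjusted p under 0.05, where 8.49% of all did. The median log2 difference of the 14 was 0.02, against 0 for all probe sets, and single values ran from -0.23 to 0.25. The arrays of the 2 genotypes did not overlap for 1 higher probe set (Actr3 1434968_PM_a_at; 8.82% of all probe sets) and 2 lower ones (Arpc5 1444568_PM_at and Wasf2 1454673_PM_at; 7.7% of all). Without KO LPS array 2, which enters this comparison only through the shared estimate of spread, 0 of 14 were called, against 0.851% of all, and 1 had an unadjusted p under 0.05, against 12.7% of all.

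After LPS 0 of 14 were called again, against 0.322% of all probe sets, and 3 reached an unadjusted p under 0.05, against 13.9% of all. The median difference was -0.28, against -0.03 for all probe sets, with values from -0.88 to 0.33 and 12 of 14 below 0. The KO arrays lay wholly below the WT arrays for 7 of 14 probe sets, against 10.2% of all. These were Arpc2, both Arpc4 probe sets, Arpc5 1444568_PM_at, Actr3 1452051_PM_at, Wasf2 1438683_PM_at and Coro1a 1435288_PM_at. Actr3 1426392_PM_a_at, the 1 probe set wholly above, against 6.89% of all, was so by less than the printed digits. Leaving out KO LPS array 2 kept 7 probe sets wholly lower and 1 wholly higher (14.7% and 11% of all), with a median of -0.15 against -0.02 for all probe sets, 0 called (0.433% of all) and 3 at an unadjusted p under 0.05 (9.6% of all). Several of the 14 probe sets are annotated to the same gene and all 14 share the same arrays, so these counts are not independent observations.

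Averaged over both stimulations 0 of 14 were called, against 2.12% of all probe sets, and 4 had an unadjusted p under 0.05, against 16% of all. The median was -0.17, against -0.02 for all probe sets. The 4 were Arpc5 1444568_PM_at, Wasf2 1454673_PM_at and Coro1a 1435288_PM_at, below 0, and Actr3 1434968_PM_a_at, above 0. Once KO LPS array 2 was removed, 0 were called (3.36% of all), 4 had an unadjusted p under 0.05 (15.7% of all) and the median was -0.07. Arrays of the same number within a genotype resembled each other and may come from 1 mouse, which this average treats as separate; with the number as a random block the members' adjusted p ran no lower than 0.161.

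**Figure D2:**
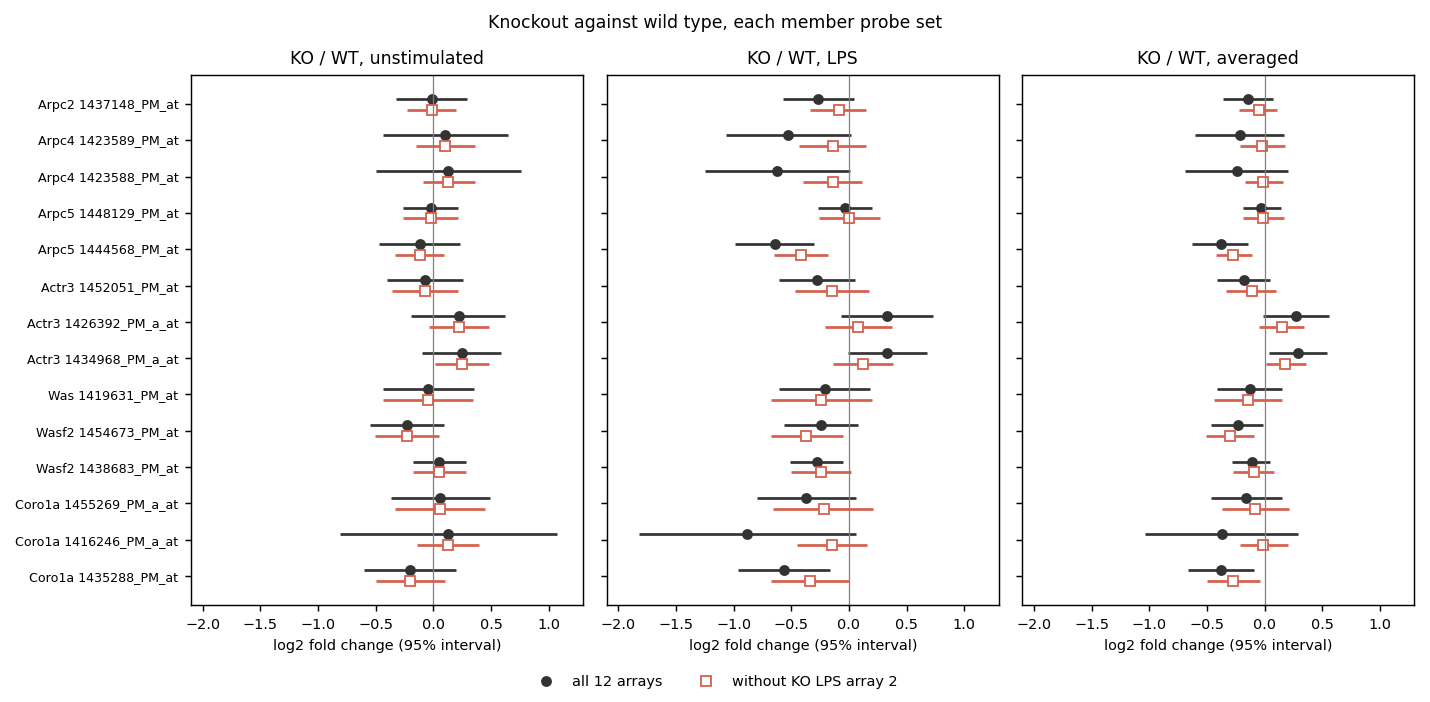
Log2 fold change of KO over WT (x axis) for each of the 14 member probe sets (y axis) in unstimulated cells, after LPS and averaged over both, from the limma fit. Points are estimates and lines 95% intervals, black for all 12 arrays and red open squares without KO LPS array 2. After LPS 12 of 14 black points lie below 0, and the red points lie nearer to 0 for 12 of 14.

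Much of the distance between KO LPS and the other groups stood on 1 array. KO LPS array 2 lay below all the other 11 arrays in 9 of 14 member probe sets (64.3%), against 23.9% of all probe sets and 31.6% of those above the median level. It lay above all others in 2 of 14 (14.3%), against 18.2% and 23.3%. Its distance from the median of the others was -2.32 log2 units for Coro1a 1416246_PM_a_at, -1.58 and -1.28 for the Arpc4 probe sets, and 0.84 and 0.76 for Actr3 1426392_PM_a_at and 1434968_PM_a_at. The median distance over the members was -0.55, against -0.04 for all probe sets. Probe sets of 1 gene moved apart on it, as for Coro1a, where 1455269_PM_a_at was 7.44 and 1416246_PM_a_at 5.76 while both were near 8 on most other arrays. The same array carried the large 3′ to middle difference of Gapdh and Actb. The lowest sum of DC markers (1360) was that of a KO LPS array. The part of these in the Arp2/3 values of KO LPS array 2 was not tested.

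**Figure D3:**
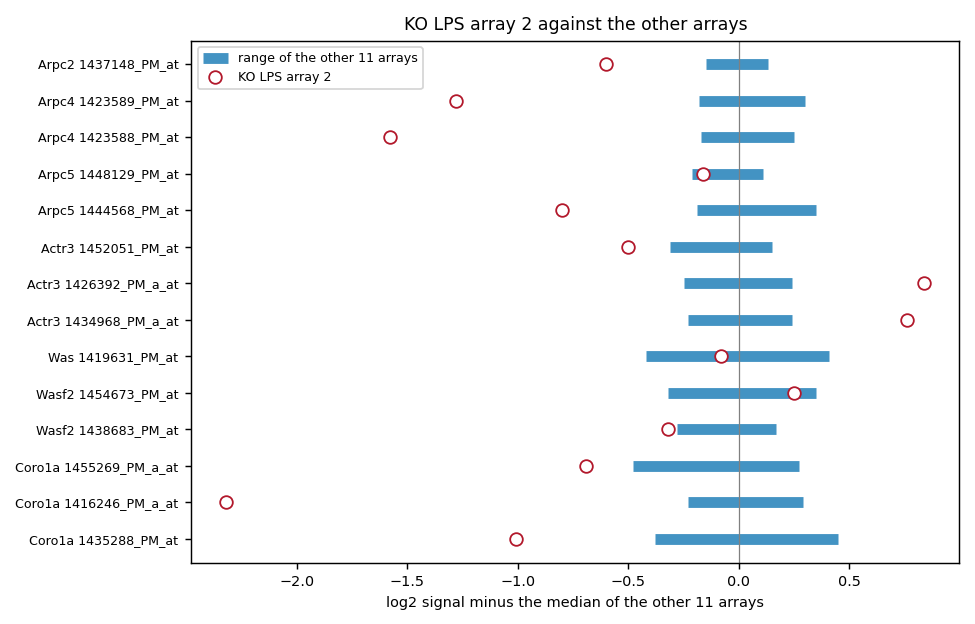
Log2 signal of KO LPS array 2 minus the median of the other 11 arrays (x axis; open circles) for the 14 member probe sets (y axis), with the range of the other 11 arrays as blue bars. The circle lies left of the bar for 9 probe sets, farthest for Coro1a 1416246_PM_a_at at -2.32, and right of it for the Actr3 probe sets 1426392_PM_a_at and 1434968_PM_a_at.

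LPS left the Arp2/3 genes without a called change in either genotype, although it moved known response genes. The LPS response genes checked, such as the cytokine gene Il6, were higher after LPS for 6 of 8 in KO and 4 of 8 in WT cells. Of the brightest probe sets of all genes, 0.357% were called in either direction for LPS in KO and 0.123% in WT. Il6 averaged 5.35 in KO LPS and 2.31 in KO unstimulated cells, and 4.52 in WT LPS and 2.19 in WT unstimulated cells. In KO cells 0 of 14 member probe sets were called, against 0.301% of all probe sets, and 6 had an unadjusted p under 0.05, against 9.53% of all. The median LPS effect in KO was -0.27, against -0.02 for all probe sets, with Coro1a 1416246_PM_a_at at -1.01 ± 0.43 (adjusted p = 0.492), Arpc4 1423588_PM_at at -0.74 ± 0.29 (adjusted p = 0.438) and Coro1a 1435288_PM_at at -0.64 ± 0.19 (adjusted p = 0.264). Without KO LPS array 2 these 3 were -0.28 ± 0.14, -0.26 ± 0.12 and -0.42 ± 0.16, the median was -0.15, 0 were called (0.464% of all) and 2 had an unadjusted p under 0.05 (7.89% of all). LPS arrays lay wholly below the unstimulated KO arrays for 3 of 14 probe sets, Arpc4 1423588_PM_at, Wasf2 1438683_PM_at and Coro1a 1435288_PM_at, against 7.87% of all, and wholly above for 0 of 14, against 5.58% of all. Removing KO LPS array 2 left the counts at 3 and 0, against 13.2% and 11% of all.

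In WT cells 0 of 14 were called after LPS, against 0.128% of all probe sets, and 0 had an unadjusted p under 0.05, against 4.93% of all. Without KO LPS array 2 these were 0 (0.36% of all) and 1 (Arpc5 1444568_PM_at; 7.23% of all). The median LPS effect in WT was 0.03, against 0 for all probe sets, within a range of -0.28 to 0.23. LPS arrays lay wholly above the unstimulated arrays for 3 of 14, Arpc5 1444568_PM_at (0.23 ± 0.16), Actr3 1426392_PM_a_at (0.17 ± 0.19) and Actr3 1434968_PM_a_at (0.19 ± 0.16), against 6.78% of all, and wholly below for 0, against 4.97% of all. For Arpc2 the 95% interval of the WT effect was -0.32 to 0.28, and for Arpc5 1448129_PM_at it was -0.29 to 0.18. With the array number as a replicate block, which uses the likeness of same-numbered arrays, the probe sets called over the whole array went to 198 for LPS in KO, against 87 without the block, and to 106 in WT, against 37, and member probe sets called were still 0 in both.

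**Figure D4:**
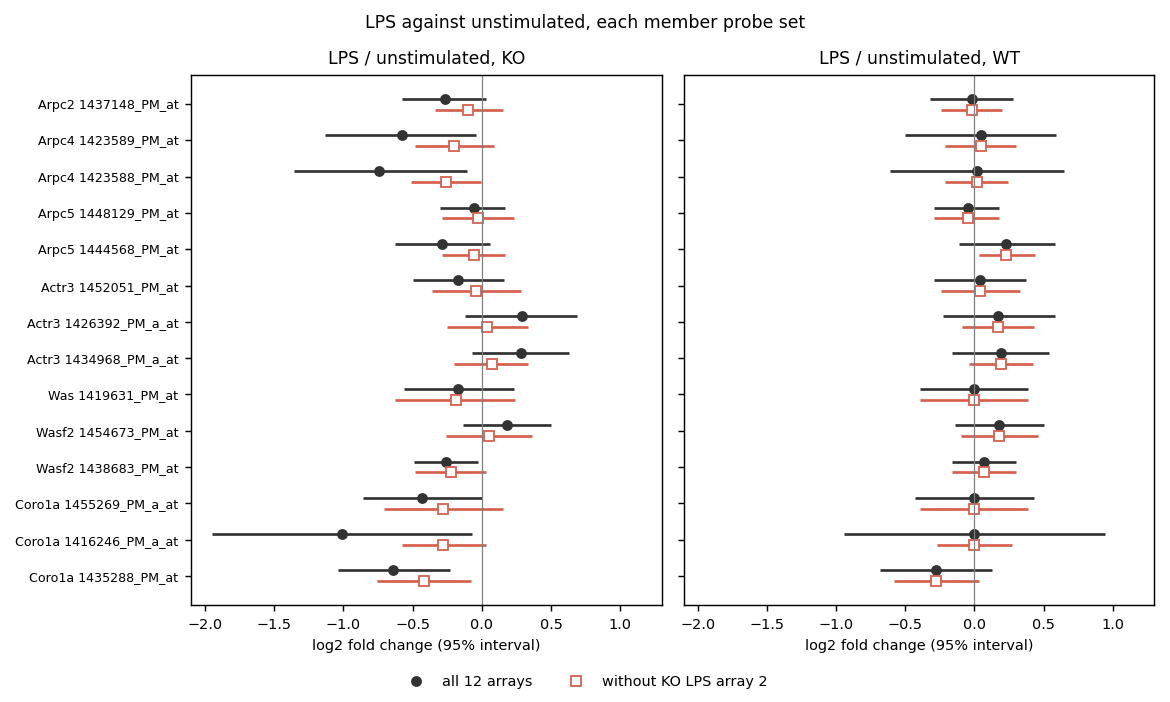
Log2 fold change of LPS over unstimulated (x axis) for each of the 14 member probe sets (y axis), in KO on the left and in WT on the right. Points are limma estimates and lines 95% intervals, black for all 12 arrays and red open squares without KO LPS array 2. The WT estimates stay within -0.28 to 0.23, and in KO the black points reach -1.01.

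The difference between the genotypes in their LPS effect was tested directly and no member passed. The effect in KO minus that in WT had a median of -0.29 over the 14 probe sets, against -0.03 for all, with 0 called here and 0 over all probe sets (0% of all; lowest adjusted p 0.957), and 2 at an unadjusted p under 0.05, Arpc5 1444568_PM_at (-0.52 ± 0.23) and Wasf2 1438683_PM_at (-0.33 ± 0.15), against 3.95% of all. Without KO LPS array 2 the median was -0.17, 0 were called (0% of all) and 0 had an unadjusted p under 0.05 (3.86% of all).

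Around the complex, 86 further genes of branched and unbranched actin assembly were grouped into 9 lists, and 78 were measured, each by its brightest probe set. Averaged over stimulations, 2 rose in KO, Wasl and Daam1, and 1 fell, Wipf1, where 1.54% of all 17097 leading probe sets were called higher and 0.819% lower. In the other 5 comparisons 0 of 78 were called by limma, where the share of all leading probe sets was 0.222% unstimulated and 0.374% after LPS between genotypes, 0.357% for LPS in KO, 0.123% for LPS in WT and 0% for the difference in LPS effect. At an unadjusted p under 0.05 there were 8 after LPS between genotypes (13.8% of all leading probe sets), 7 unstimulated (8.74%), 12 for LPS in KO (9.49%), 3 for LPS in WT (5.09%) and 5 for the difference in LPS effect (3.71%). With KO LPS array 2 left out these counts of 78 were 9 (9.7% of all), 14 (13%), 9 (8.02%), 8 (7.3%) and 6 (3.66%) in the same order.

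Wasl encodes N-WASP, which activates the Arp2/3 complex in the same way as WASP. It read 5.52, 6.97 and 5.86 in KO LPS, 5.74, 5.84 and 5.80 in KO unstimulated, 4.94, 5.05 and 5.20 in WT LPS and 4.95, 5.12 and 4.81 in WT unstimulated arrays. All 6 KO arrays lay above all 6 WT arrays. The averaged difference was 0.94 ± 0.19 (adjusted p = 0.0276), and 0.73 ± 0.09 without KO LPS array 2 (adjusted p = 0.000886). With the number as a random block the adjusted p was 0.0454. A second Wasl probe set, 1426776_PM_at, gave 0.63 ± 0.13 (adjusted p = 0.0259), and another, 1426777_PM_a_at, gave 0.19 ± 0.12 (adjusted p = 0.479). In unstimulated cells alone the difference was 0.83 ± 0.27 (adjusted p = 0.364), and Wasl was called there without KO LPS array 2 (adjusted p = 0.00675), as were 0.942% of leading probe sets. After LPS it was 1.05 ± 0.27 (adjusted p = 0.135), and 0.63 ± 0.13 with that array left out (adjusted p = 0.0753). Leaving out 1 array at a time, the averaged call was lost in 8 of 12 fits, those without an unstimulated KO array 1 or 2 or without any single WT array, with differences of 0.90 to 0.98 and adjusted p of 0.0559 to 0.0765.

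Wipf1 encodes WIP, the partner that binds WASP and protects it from degradation. It read 5.84, 5.66 and 6.23 in KO LPS, 6.37, 6.61 and 6.49 in KO unstimulated, 6.53, 6.83 and 6.65 in WT LPS and 6.73, 6.59 and 6.72 in WT unstimulated arrays. The LPS arrays of the genotypes did not overlap, and the unstimulated ones did. The averaged difference was -0.47 ± 0.10 (adjusted p = 0.0335), -0.41 ± 0.09 without KO LPS array 2 (adjusted p = 0.0315), and not called with the number as a random block (adjusted p = 0.0629). The other Wipf1 probe set, 1436954_PM_at, gave -0.28 ± 0.15 (adjusted p = 0.382). After LPS the Wipf1 difference was -0.76 ± 0.14 (adjusted p = 0.0503), and -0.63 ± 0.14 with KO LPS array 2 left out (adjusted p = 0.0838). The averaged call was lost in 10 of 12 fits that left out 1 array, each except those without KO LPS array 2 or 3, with differences of -0.51 to -0.43 and adjusted p of 0.0527 to 0.0951.

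Daam1 encodes a formin, which elongates unbranched filaments. It read 3.84, 4.42 and 4.26 in KO LPS, 3.95, 4.01 and 3.96 in KO unstimulated, 3.87, 3.24 and 3.64 in WT LPS and 3.67, 3.53 and 3.43 in WT unstimulated arrays. The unstimulated genotypes did not overlap, and after LPS KO array 1 lay under WT array 1. The averaged difference was 0.51 ± 0.12 (adjusted p = 0.0497), and 0.45 ± 0.12 without KO LPS array 2 (adjusted p = 0.0539), at which it was no longer called. With the random block the adjusted p was 0.0758. The second Daam1 probe set, 1431035_PM_at, gave 0.57 ± 0.10 (adjusted p = 0.0148). The call of the leading Daam1 probe set was lost in 10 of 12 fits that left out 1 array, each except those without KO LPS array 1 or WT LPS array 1, with adjusted p of 0.0539 to 0.122. Neutrophil and NK cell marker sums differed between the genotypes in the same averaged comparison, as given above, and their part in Wasl, Wipf1 and Daam1 was not tested.

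No listed gene other than Wasl, Wipf1 and Daam1 was called in the averaged comparison of genotypes with all arrays, and the medians of the lists ran from -0.03 to 0.18, against -0.02 for all leading probe sets. Among the 8 other nucleation promoting factors, where Wasl was the 1 call, the median was -0.01, and Hcls1, the leukocyte relative of cortactin, was at -0.44 ± 0.15 (adjusted p = 0.162; -0.33 without KO LPS array 2) and Whamm at -0.30 ± 0.11 (adjusted p = 0.217; -0.27 without it). Of 8 WASP-interacting genes Wipf1 was called and the median was -0.03. The F-BAR gene Fnbp1l was at 0.28 ± 0.13 (adjusted p = 0.323; 0.19 without that array). The 6 measured genes of the WAVE regulatory complex, which holds WAVE2 inactive until Rac binds, had a median of 0.16, with Abi1 at 0.39 ± 0.19 (adjusted p = 0.351) and Nckap1 at 0.22 ± 0.11 (adjusted p = 0.328). Leaving out KO LPS array 2 gave 0.17 ± 0.09 for Abi1 (adjusted p = 0.378) and 0.18 ± 0.11 for Nckap1 (adjusted p = 0.459). Of 2 measured subunit paralogs Arpc5l was at 0.22 ± 0.13 (adjusted p = 0.455) and Arpc1a at 0.07 ± 0.13 (adjusted p = 0.856), and with that array left out Arpc5l was at 0.10 ± 0.10 (adjusted p = 0.695) and Arpc1a at 0.21 ± 0.07 (adjusted p = 0.177).

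Of the 16 upstream GTPases, exchange factors and adaptors (median 0.06), 0 were called, and Elmo1, which works with DOCK proteins to load Rac with GTP, came closest at -0.42 ± 0.11 (adjusted p = 0.0584). Without KO LPS array 2 Elmo1 was called at -0.34 ± 0.08 (adjusted p = 0.0462), as was Vav1, a further exchange factor, at 0.39 ± 0.09 (adjusted p = 0.039), against 0.23 ± 0.15 with all arrays (adjusted p = 0.493). In that setting 2.3% of leading probe sets were called higher and 1.32% lower. With the array number also taken as a random block neither was called (adjusted p = 0.0952 for Elmo1 and 0.0634 for Vav1). The second probe sets were not called without that array either, at -0.23 ± 0.10 for Elmo1 1424523_PM_at (adjusted p = 0.259) and 0.19 ± 0.11 for Vav1 1440300_PM_at (adjusted p = 0.427). Vav1 had read 3.51 on KO LPS array 2, against 4.24 and 4.66 on the other KO LPS arrays. The GTPase genes Rac1 (0.12 ± 0.08, adjusted p = 0.472) and Cdc42 (0.12 ± 0.08, adjusted p = 0.46), named here after their values were seen because they act directly on WAVE2 and WASP, were not called. Of 9 inhibitors and debranching factors (median 0.03) 0 were called, with Coro2a at 0.32 ± 0.08 (adjusted p = 0.0707; 0.26 without KO LPS array 2). Of 3 measured genes of the WASH complex, which activates Arp2/3 on endosomes, 0 were called (median 0.18). Washc2 was at 0.47 ± 0.22 (adjusted p = 0.319), and at 0.22 ± 0.09 with KO LPS array 2 left out (adjusted p = 0.265). Of 8 formins (median 0.05) Daam1 was called, and Fmnl1 was at -0.47 ± 0.15 (adjusted p = 0.144; -0.32 without KO LPS array 2). Of 18 genes of actin itself and of monomer binding, severing and capping (median 0.03) 0 were called, with the filament severing gene Gsn at 0.39 ± 0.18 (adjusted p = 0.323) and the capping gene Capg at 0.33 ± 0.14 (adjusted p = 0.27). Leaving out the same array gave 0.24 ± 0.15 for Gsn (adjusted p = 0.475) and 0.42 ± 0.12 for Capg (adjusted p = 0.0881).

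After LPS alone, Fmnl1 was at -0.81 ± 0.21 in KO against WT (adjusted p = 0.145), Hcls1 at -0.75 ± 0.21 (adjusted p = 0.164) and Elmo1 at -0.64 ± 0.15 (adjusted p = 0.0997). With KO LPS array 2 left out these were -0.52 ± 0.15 for Fmnl1 (adjusted p = 0.233), -0.52 ± 0.18 for Hcls1 (adjusted p = 0.341) and -0.47 ± 0.13 for Elmo1 (adjusted p = 0.169). Besides Wasl, genes higher in KO after LPS included Washc2 at 0.66 ± 0.31 (adjusted p = 0.371), Daam1 at 0.59 ± 0.17 (adjusted p = 0.174) and Abi1 at 0.56 ± 0.27 (adjusted p = 0.382). Without that array they were at 0.16 ± 0.14, 0.47 ± 0.17 and 0.13 ± 0.13 (adjusted p = 0.808, 0.375 and 0.842 in that order). In unstimulated cells the GTPase gene Rac2 was at 0.56 ± 0.28 (adjusted p = 0.638), Coro2a at 0.44 ± 0.12 (adjusted p = 0.239) and Pstpip1, which binds WASP, at 0.42 ± 0.18 (adjusted p = 0.528). For LPS in KO cells Rac2 was at -0.88 ± 0.28 (adjusted p = 0.323), Coro1b at -0.71 ± 0.21 (adjusted p = 0.284) and Abi1 at 0.66 ± 0.27 (adjusted p = 0.462). The values with that array left out were -0.55 ± 0.23 for Rac2 (adjusted p = 0.57), -0.43 ± 0.16 for Coro1b (adjusted p = 0.471) and 0.23 ± 0.13 for Abi1 (adjusted p = 0.744). For LPS in WT cells Fnbp1l was at 0.72 ± 0.18 (adjusted p = 0.412) and Abi2 at 0.57 ± 0.23 (adjusted p = 0.926). None of these differences passed the test, with all arrays or without KO LPS array 2.

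**Figure D5:**
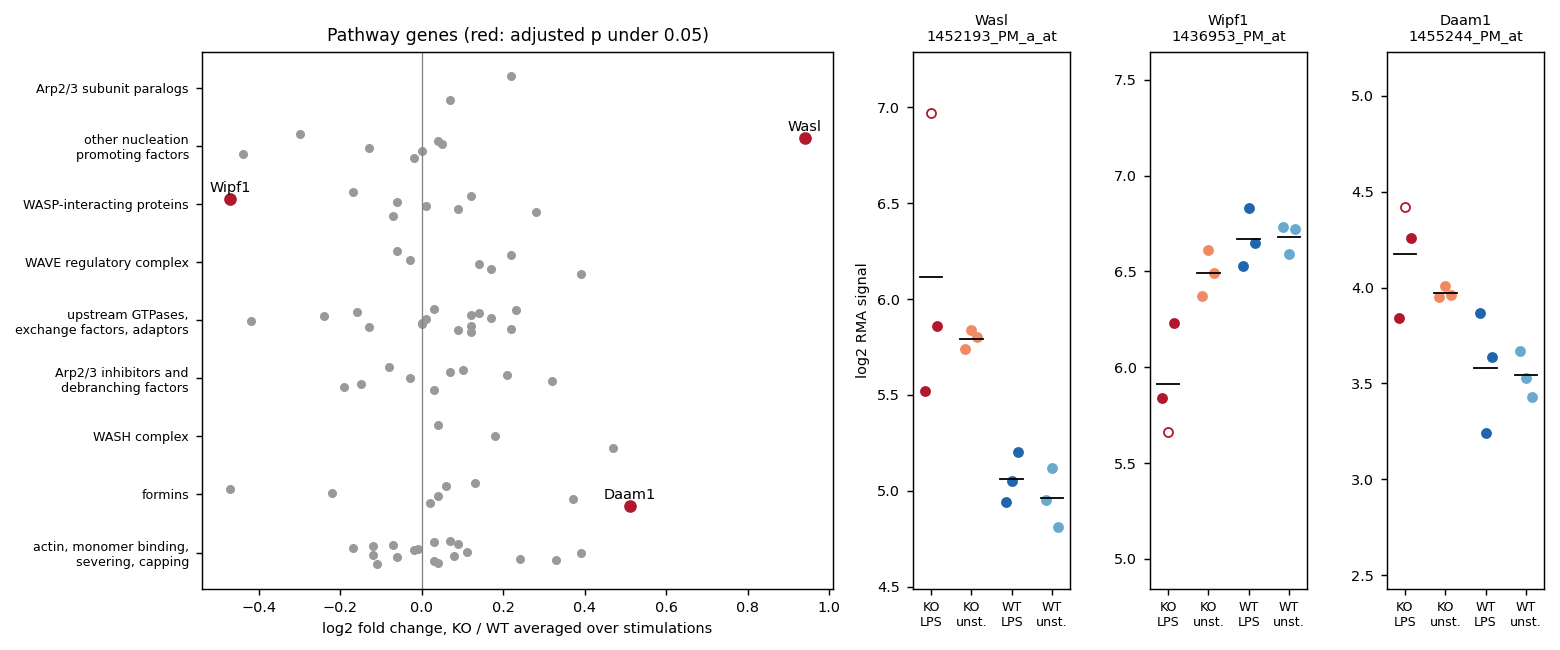
Left, log2 fold change of KO over WT averaged over both stimulations (x axis) for the 78 measured pathway genes by list (y axis), with called genes in red. Right, log2 RMA signal (y axis) of Wasl, Wipf1 and Daam1 on each array by group (x axis), with lines at means of 3 arrays and the open point for KO LPS array 2. Wasl lies farthest right at 0.94, and its 6 KO arrays all lie above its 6 WT arrays.

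The genes whose pattern was most like that of the subunits were sought over the 12 arrays with the mean centred profile of the leading probe sets of the 4 measured subunits. That profile lay at -0.57 on KO LPS array 2 and between -0.13 and 0.18 on the others. The highest Pearson r among 17090 genes were those of Snx22 (0.975), Notch2 (0.965), Rab8a (0.959), Snrpd2 (0.953) and Ppp1ca (0.951), where the median gene had 0.055. Over the 11 arrays without KO LPS array 2 the highest were those of Cdk19 (0.913), Nnt (0.897), Pgk1 (0.886), Ciz1 (0.885) and Snx22 (0.882), with a median gene at -0.004. Only Snx22 stood in both lists of 5. These correlations describe points that share arrays and, for the first list, 1 array far from the rest.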

How the data were processed

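RNA of splenic DCs was amplified with primers that start both at the poly(A) tail and along transcripts, labelled with biotin and hybridised to arrays, per the labels' protocols. The deposited values are log2 signals that the authors normalised with RMA, per the submitters' processing notes; the sources used here state neither its version nor a genome build. Of 45141 probe sets, 104 controls, 551 with several symbols and 15588 without a symbol were left out, and 28898 were kept, 28689 of them matched to RefSeq by Entrez number. No column of another series was present. No filter on dim probe sets was applied, and the number of arrays limits the precision.

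One model with 4 group means of 3 arrays was fitted to all 28898 probe sets with limma 3.58.1 (lmFit, eBayes; R 4.3.3; 8 residual degrees of freedom, 12.4 after moderation), with Benjamini-Hochberg adjustment within each of 6 comparisons and calls at an adjusted p under 0.05. The test was checked on simulated data. Errors after ± are moderated SEs. Per the labels each array of a group came from a mouse of its own.

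After removal of group means, arrays of the same number correlated at 0.22 to 0.387 within a genotype and of other numbers at -0.292 to -0.047, and the same number across genotypes at -0.004 to 0.197. Numbers were therefore taken as pairs within a genotype in alternative fits only. These used a fixed block for LPS effects and a random block (statmod 1.5.0, consensus correlation 0.162). For KO against WT the block by number is also only a named alternative. Unless a block is named, all values given, those of LPS effects included, come from the fit without a block, which leaves this pairing out.

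Alternatives were leaving out each array, both blocks, 1 probe set per gene, array weights, leaving out dim probe sets and centring array medians; both blocks without KO LPS array 2 were added after seeing the data. Named genes were all members with every probe set and, per pathway list and comparison, candidates of up to 4 called and up to 2 not called by largest change; likeness used the 5 highest r, with 4 of the 7 subunits measured. Members and lists were chosen with earlier results of these data known.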

Additional observations from a re-analysis of the deposited data

How the results depend on the processing

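Leaving out 1 array at a time, the count of member probe sets called stayed at 0 in the comparisons other than the average over stimulations, where it ran from 0 to 1. Of 1632 member fold changes under alternatives 1630 kept their side of the threshold and 2 passed it. Both were for Arpc5 1444568_PM_at in that average, in the fits named in the report. Among values that were not called, 74 changed sign. For 4 of them the difference in the main fit, with all arrays and no block, was above 0.2 log2 units in size. Blocking by array number and leaving out KO LPS array 2 gave 1 member called in the average. Because no member was called with all arrays, no member call was lost.

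Counts over all probe sets moved more. Unstimulated KO against WT had 47 called, and 222 with the replicate block, 202 with array weights, 839 with the replicate block and KO LPS array 2 left out, 297 with the random block and that array left out, and 6 to 246 over single arrays left out. After LPS there were 93, and 373, 340 and 158 with the replicate block and with each block without that array, and 2 to 511 over single arrays. LPS in KO had 87, and 198 with the replicate block, 154 with the random block, 155 with weights, 250 and 207 with the blocks without that array, and 42 to 134 over single arrays. LPS in WT had 37, and 106, 74, 20 with 1 probe set per gene, 79 with weights, 337 and 167, and 11 to 104. The average had 614, and 1267 with the replicate block, 406 with the random block, 1136 with weights, 1769 with the replicate block without that array, and 260 to 1243. The difference in LPS effect had 0 throughout the single arrays left out.

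Pathway genes called unstimulated were 0, and 1 with weights, 3 with the replicate block without KO LPS array 2, 1 with the random block without it and 0 to 1 over single arrays. After LPS they were 0, and 1 under each of the replicate block, 1 probe set per gene, weights, dim probe sets left out and the replicate block without that array, and 0 to 2 over single arrays. LPS in KO gave 0, and 0 to 1 over single arrays; LPS in WT gave 0, and 2 and 1 with the blocks without that array. The average gave 3, and 1 with the random block, 7 and 1 with the blocks without that array, and 0 to 4 over single arrays. The cause was not tested.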
